A study of Rattus norvegicus with 6 samples.

Results

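Glycolysis splits glucose into pyruvate in the cytosol, lactate dehydrogenase interconverts pyruvate and lactate, and monocarboxylate transporters carry lactate across the membrane. Glycogen is the stored form of glucose, and in brain it is held mainly by astrocytes, which are also known for releasing lactate that neurons can use. The 33 genes described here cover these steps: 3 glucose transporters and 2 hexokinases, 15 genes of the glycolytic sequence from glucose-6-phosphate isomerase to pyruvate kinase with its regulators, 2 lactate dehydrogenase subunits and 3 monocarboxylate transporters, and 8 genes of glycogen synthesis and breakdown. They were chosen by name as genes of these pathways, and all 33 were found among the 37183 gene symbols of the deposited table.

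The series asked how insulin acts on metabolism in brain cells, using primary cultures from rat hippocampus labelled astrocytes and neurons. Each culture type gave a control library, a library after 6 h and a library after 12 h of 200 nM insulin, 1 library per group and 6 in all, from ribosomal RNA-depleted total RNA. The controls are called saline in the titles and untreated at 0 min in the other labels. Astrocytes had been grown in medium with 10% FBS and 25 mM glucose, and 4 h before treatment were moved to 2% FBS and 5 mM glucose. Neurons were grown in serum-free Neurobasal medium with 1% B27 and were moved to an insulin-free form of it, also 4 h before treatment. By the 0 min label, insulin libraries also spent longer in the changed medium than the control library. Insulin and time in that medium then cannot be told apart. The titles give no time for the saline. The labels used here give no genotype, strain, age or sex.

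With 1 library per group there was no replicate error to set a difference against, so no test was made and every difference below is between 2 libraries. Levels are FPKM, a read count divided by transcript length and library size, back-calculated from the deposited log2 values, and differences are in log2 units of insulin minus control of the same culture. A gene was compared when neither library was blank for it and its higher value was 1 FPKM or more. It is called higher when it exceeded the other library by 25% or more, and lower when it was at least 20% below it, which is a difference of 0.32 or -0.32 in log2 units. All 6 libraries had been forced to the same distribution of values, and more symbols carried a value in the insulin libraries than in their controls (22891, 23814 and 23898 at 0, 6 and 12 h in astrocyte cultures, 23927, 25510 and 25528 in neuron cultures). The median of all genes compared was above 0 in every insulin comparison, at 0.09 and 0.10 in astrocyte cultures and at 0.14 at each time in neuron cultures.

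The culture labels held only in part. Summed over 11 neuron markers, the level was 3.06, 2.58 and 2.73 FPKM in the astrocyte-labelled libraries and 54.7, 59.1 and 55.9 FPKM in the neuron-labelled libraries at 0, 6 and 12 h. Yet 10 astrocyte markers summed to 49.3 to 57.9 FPKM in the astrocyte-labelled and 295 to 311 FPKM in the neuron-labelled libraries, and 8 oligodendrocyte-lineage markers to 3.62 to 3.95 FPKM and 111 to 118 FPKM. Smooth muscle and fibroblast markers, of which 9 of the 10 listed were analysed here, summed to 551 to 659 FPKM in the astrocyte-labelled and 5.29 to 12.6 FPKM in the neuron-labelled libraries. Single genes carried some sums. Stmn2 held 2.43 of the 3.06 FPKM of neuron markers in the astrocyte control, and Tagln 4.35 of the 5.29 FPKM of smooth muscle markers in the neuron control. Between the controls 7 of 8 astrocyte and 4 of 6 oligodendrocyte-lineage markers compared were called lower in the astrocyte culture. Fgfr3 (22.1 against 3.70 FPKM), Cspg4 and Mog were called higher there. In bulk RNA, fewer cells of a type and less RNA per cell cannot be told apart. The terms astrocyte culture and neuron culture below refer to the labels.

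Of the 33 genes, 16 were at 1 FPKM or more in all 6 libraries, 8 in some of them and 9 in none. The 9 were the insulin-responsive glucose transporter Slc2a4, the hexokinase Hk2, the monocarboxylate transporters Slc16a3 and Slc16a7, the liver and muscle glycogen phosphorylases Pygl and Pygm, the glycogen branching enzyme Gbe1, the phosphoglucomutase Pgm1 and the glycogen synthase kinase Gsk3b. Their highest values ranged from 0.0485 FPKM for Gbe1 to 0.923 FPKM for Pgm1. Their differences are given as values only, because the depth of the libraries is unknown and low values carry the largest counting error.

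The control libraries show how the cultures differed before insulin. The astrocyte culture had far lower levels of Aldoc, Ldhb and Eno2 and moderately higher levels of Pkm, Pgam1 and Ldha. Of 24 genes compared, 13 were called lower in the astrocyte control than in the neuron control and 5 higher, against 42.1% lower and 35.1% higher among all 7146 genes compared. At least 2-fold lower were 6 of the 24, against 21.9% of all genes, and at least 2-fold higher were 0 of the 24, against 18.7%. The median of the 24 was -0.42 and that of all genes -0.10.

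Aldoc, the aldolase isozyme of brain and itself an astrocyte marker, was at 6.02 FPKM in the astrocyte and 73.9 FPKM in the neuron control, a difference of -3.62. Ldhb, the lactate dehydrogenase subunit of oxidative tissues, was at 0.801 FPKM in the astrocyte and 9.12 FPKM in the neuron control (-3.51). Eno2, the neuronal enolase, was at 1.32 FPKM in the astrocyte and 8.26 FPKM in the neuron control (-2.64). The remaining 3 genes with 2-fold lower levels belong to the phosphofructokinase step, which commits sugar to glycolysis. They were the subunit genes Pfkp (0.253 FPKM in the astrocyte and 1.33 FPKM in the neuron control) and Pfkm (0.893 and 4.16 FPKM) and the regulator Pfkfb2 (0.561 and 2.61 FPKM). The other 7 called lower were Hk1, Pygb, Gpi, Pfkfb3, Aldoa, Slc16a1 and Slc2a1. Their differences ran from -0.99 for Hk1 to -0.42 for Slc2a1, with Aldoa, the widespread aldolase, at 33.4 FPKM in the astrocyte and 45.5 FPKM in the neuron control. The excess of Aldoc in the neuron-labelled library went with that of 7 of the 8 astrocyte markers compared, which were called lower in the astrocyte control. Their part in the result was not tested.

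The 5 genes higher in the astrocyte control were Pkm (pyruvate kinase), Pgam1 (phosphoglycerate mutase), Ldha (the lactate dehydrogenase subunit of glycolytic tissues), the glucose transporter Slc2a3 and Pgk1 (phosphoglycerate kinase). Pkm was at 4.38 FPKM in the astrocyte and 2.43 FPKM in the neuron control, a difference of 0.85. Pgam1 was at 27.5 FPKM in the astrocyte and 15.7 FPKM in the neuron control, and Ldha at 15.6 and 9.28 FPKM. Gapdh, glyceraldehyde-3-phosphate dehydrogenase, was called in neither direction, at 53.8 FPKM in the astrocyte and 47.8 FPKM in the neuron control, and nor was the enolase Eno1 (8.54 and 9.36 FPKM). By the rows named after the genes, the 3 of highest level were Gapdh, Aldoa and Pgam1 in the astrocyte control. In the neuron control they were Aldoc, Gapdh and Aldoa. This order changes when the copies described below are added. Summed Pkm (230 FPKM) and Eno1 (132 FPKM) then lay above Aldoa (76.2 FPKM) in the astrocyte control. In the neuron control summed Eno1 (190 FPKM), Pkm (133 FPKM) and Aldoa (103 FPKM) lay above Aldoc (73.9 FPKM). Slc16a3, the lactate exporter of glycolytic cells, stayed under 1 FPKM, at 0.195 FPKM in the astrocyte and 0.0263 FPKM in the neuron control.

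**Figure D1:**
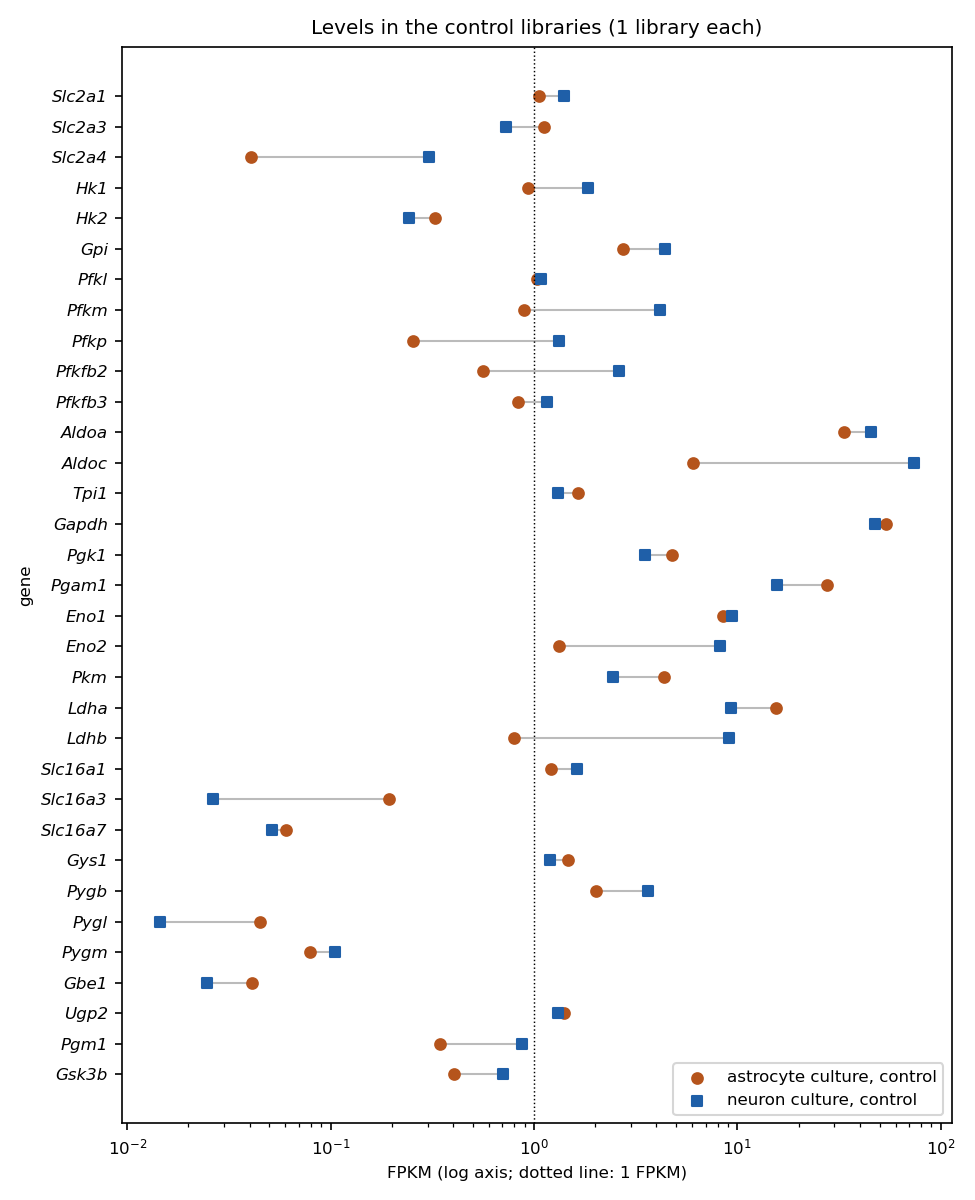
FPKM on a log axis of all 33 genes in the control library of the astrocyte culture (circles) and of the neuron culture (squares), 1 library each, with a dotted line at 1 FPKM. The widest gaps among genes with a value above the line are those of Aldoc, Ldhb and Eno2, all with the neuron culture to the right.

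In astrocyte cultures, most genes compared were modestly higher in the insulin libraries. At 6 h, 17 of 20 genes compared were above 0 and 16 above the all-gene median, 9 were called higher and 0 lower, against 18% higher and 7.98% lower among all 6206 genes. At 12 h, 16 of 19 were above 0 and 15 above the all-gene median, 1 was called lower and 7 higher, against 7.06% and 16.7% of 6221 genes. The median was 0.27 at 6 h and 0.21 at 12 h. At least 2-fold higher was 1 gene at each time, Tpi1, against 1.05% of all genes at 6 h and 0.611% at 12 h, and 0 were 2-fold lower, against 0.886% and 0.916%. Genes higher at both times were 4 of 19, against 8.95% of all 6064 genes compared at both times, and 0 were lower at both, against 3.58%. The 4 were Slc2a1, Tpi1, Pgam1 and Ldha. Both times are set against the same control library, so a low value in that 1 library raises both differences. Many of these genes have sequence copies elsewhere in the genome, described below. Of the 7 genes higher at 12 h, 6 have such a copy, and among the 10 genes compared that have none 1 was higher and 1 lower, against the same 16.7% and 7.06% of all genes. At 6 h it was 5 higher and 0 lower of 11 without a copy.

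Slc2a1, the glucose transporter of glia and the blood-brain barrier, was at 1.06, 1.34 and 1.52 FPKM at 0, 6 and 12 h in astrocyte cultures, differences of 0.34 and 0.52. Slc2a3, the transporter typical of neurons, went the other way without being called, at 1.11, 0.911 and 1.00 FPKM. Hk1, the constitutive hexokinase that traps glucose in the cell, was at 0.930, 1.03 and 1.06 FPKM. Its inducible counterpart Hk2 stayed under 1 FPKM, at 0.327, 0.495 and 0.462 FPKM. Slc2a4, which insulin moves to the surface of muscle and fat cells, was at 0.0408, 0.0181 and 0.0194 FPKM.

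In the upper part of the sequence, Pfkl, a phosphofructokinase subunit gene, was at 1.04 FPKM in the control, 1.51 FPKM at 6 h and 1.19 FPKM at 12 h, and was called higher at 6 h only (0.54). Pfkfb3, which makes the activator of phosphofructokinase, was at 0.839, 1.07 and 0.939 FPKM (0.35 at 6 h). Aldoa was at 33.4, 39.2 and 42.3 FPKM and was called higher at 12 h (0.34), whereas Aldoc was at 6.02, 6.25 and 4.74 FPKM and was lower at 12 h (-0.34). Aldoc was the gene called lower at 12 h. The astrocyte markers glutamine synthetase (Glul, -0.69) and S100b (-0.37) were also lower then and Gfap (0.44) and Fgfr3 (0.49) higher, the other 2 of the 6 compared lying between, and their part in the Aldoc value was not tested.

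In the lower part, which yields ATP and pyruvate, Pgam1 was at 27.5, 35.4 and 39.0 FPKM at 0, 6 and 12 h (0.36 and 0.50). Pkm was at 4.38, 5.20 and 5.82 FPKM and Eno1 at 8.54, 10.5 and 10.9 FPKM, each higher at 12 h (0.41 and 0.36). Eno2 was at 1.32, 1.68 and 1.46 FPKM and higher at 6 h (0.35). Gapdh (53.8, 61.5 and 60.9 FPKM) and Pgk1 (4.79, 5.61 and 5.74 FPKM) were above the control at both times without being called. All 12 genes of the glycolytic sequence that were compared at 6 h were above 0, from 0.05 for Aldoc to 2.11 for Tpi1. The median of all genes was also above 0 then, at 0.09, and Aldoc lay below it.

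On the lactate side, Ldha was at 15.6, 22.5 and 22.2 FPKM in astrocyte cultures, higher at both times by 0.53 and 0.51. Ldhb stayed below 1 FPKM there, at 0.801, 0.883 and 0.722 FPKM. Slc16a1, the widespread lactate carrier, was at 1.21, 1.73 and 1.39 FPKM and higher at 6 h (0.51). Slc16a3 was at 0.195, 0.587 and 0.436 FPKM, differences of 1.59 and 1.16 at levels under the floor for comparison, and Slc16a7 was at 0.0601, 0.0949 and 0.0889 FPKM. Basigin (Bsg), which escorts these carriers to the membrane, was at 35.5, 33.7 and 36.5 FPKM and was called at neither time.

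Glycogen genes did not move together. Gys1, the glycogen synthase of tissues other than liver, was at 1.46, 2.01 and 1.76 FPKM in astrocyte cultures and higher at 6 h (0.46), a call that is lost when its copies are added (0.29). Pygb, the brain glycogen phosphorylase, was at 2.03, 1.86 and 1.91 FPKM and Ugp2, which makes the UDP-glucose that glycogen synthase uses, at 1.40, 1.30 and 1.43 FPKM. Gsk3b, a kinase that inhibits glycogen synthase, was at 0.404, 0.376 and 0.471 FPKM.

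In neuron cultures the share of the set called higher was near or below that of all genes, and members moved in opposite directions at 12 h. At 6 h, 5 of 23 genes were called higher and 0 lower, against 27.3% and 7.11% of all 6610 genes, and the median was 0.11, below the all-gene median. At 12 h, 7 were higher and 6 lower, against 30.4% and 10.5% of 6641 genes, and the median was 0.24, against 0.14 for all genes. The other 10 lay from -0.25 for Pfkp to 0.31 for Pfkfb3. None of the 23 compared reached 2-fold at either time, against 1.6% higher and 1.29% lower at 6 h and 2.39% and 1.45% at 12 h among all genes. Higher at both times were 4 of 23, against 20.9% of 6475 genes, and 0 lower at both, against 4.86%. The 4 were Slc2a1, Gapdh, Slc16a1 and Ugp2. Here too both times share 1 control library. With the copies described below added, Gapdh was called at neither time (0.18 and 0.16), and Pgk1 was called higher at both (0.34 and 0.41).

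Among the 23 genes compared, Slc16a1 showed the largest difference at 12 h in neuron cultures. It was at 1.64, 2.38 and 3.25 FPKM at 0, 6 and 12 h, differences of 0.54 and 0.99. Ldha was at 9.28, 11.5 and 14.4 FPKM, with a difference of 0.31 at 6 h, just short of a call, and 0.63 at 12 h. Slc2a1 was at 1.41, 1.77 and 1.89 FPKM, higher at both times (0.32 and 0.42), at 6 h only just past the limit for a call. Gapdh was at 47.8, 60.0 and 68.9 FPKM (0.33 and 0.53), Hk1 at 1.84, 1.97 and 2.31 FPKM and Pfkl at 1.09, 1.31 and 1.39 FPKM, the last 2 called higher at 12 h. Ugp2 was at 1.31, 1.78 and 1.66 FPKM (0.45 and 0.34). Under the floor, Hk2 was at 0.243, 0.434 and 0.522 FPKM (1.10 at 12 h), and Slc16a3 had a difference of 1.01 at 12 h.

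The genes lower at 12 h in neuron cultures were Eno2, Ldhb, Tpi1, Aldoc, Pygb and Pfkm. Eno2 was at 8.26, 6.74 and 5.03 FPKM, differences of -0.29 and -0.71. Ldhb was at 9.12, 8.19 and 6.35 FPKM (-0.15 and -0.52), and Aldoc at 73.9, 76.4 and 53.6 FPKM (0.05 and -0.46). Pygb was at 3.65, 3.37 and 2.70 FPKM (-0.12 and -0.44), and Pfkm at 4.16, 4.09 and 3.31 FPKM (-0.02 and -0.33). For all 6 rows, Tpi1 included, the 12 h library was the lowest of the 3. With its copies added, Tpi1 was above the control at 12 h (0.22). The neuron control enters both this comparison and the one between the controls, so a high or low value in that 1 library moves both.

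The balance of isozymes in neuron cultures differed between the control and the 12 h library. The ratio of Ldha to Ldhb in FPKM was 1.02, 1.40 and 2.26 at 0, 6 and 12 h. The ratio of Aldoa to Aldoc was 0.615, 0.616 and 1.04, that of Eno1 to Eno2 was 1.13, 1.37 and 2.29, and that of Pfkl to Pfkm was 0.261, 0.321 and 0.419. Each of these 4 ratios was highest in the 12 h library. The first 3 shift with the copies described below. In the astrocyte control these 4 ratios were higher than in the neuron control, and over 0, 6 and 12 h they were 19.4, 25.5 and 30.7 for Ldha to Ldhb, 5.55, 6.27 and 8.92 for Aldoa to Aldoc, 6.47, 6.23 and 7.49 for Eno1 to Eno2 and 1.16, 1.51 and 1.33 for Pfkl to Pfkm. The ratio of Slc2a1 to Slc2a3 went the other way between the controls, at 0.951, 1.47 and 1.52 in astrocyte cultures and 1.94, 2.17 and 3.75 in neuron cultures. That of Pfkfb3 to Pfkfb2 was 1.49, 2.03 and 1.32 in astrocyte cultures and 0.442, 0.488 and 0.550 in neuron cultures, and that of Hk2 to Hk1, with Hk2 under the floor, was 0.352, 0.481 and 0.438 and 0.132, 0.220 and 0.226. Other ratios also rest on values under 1 FPKM. In neuron cultures Slc2a3 was at 0.729, 0.815 and 0.503 FPKM at 0, 6 and 12 h. In astrocyte cultures Ldhb, Pfkm and Pfkfb2 were under 1 FPKM in every library.

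Markers of the cell types in the neuron cultures were not level over the same libraries. Of 6 neuron markers compared at 12 h, 3 were lower, namely Gad1 (-0.77), Gad2 (-0.52) and Stmn2 (-0.39), and 1, Dcx (0.37), was higher. Of 8 astrocyte markers, Glul (-0.45), S100b (-0.34) and Gja1 (-0.49) were lower and 2 were higher, Gfap (0.47) and Sox9 (0.32). Both smooth muscle markers compared were more than 2-fold higher, Tagln at 4.35, 6.53 and 10.3 FPKM and Myl9 at 0.762, 1.71 and 1.98 FPKM, while Acta2 stayed at 0.0149 FPKM or less. The summed neuron marker level was 55.9 FPKM at 12 h and 54.7 FPKM in the control, and the summed astrocyte marker level 295 FPKM at 12 h and 299 FPKM in the control. Their part in the isozyme values was not tested.

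**Figure D2:**
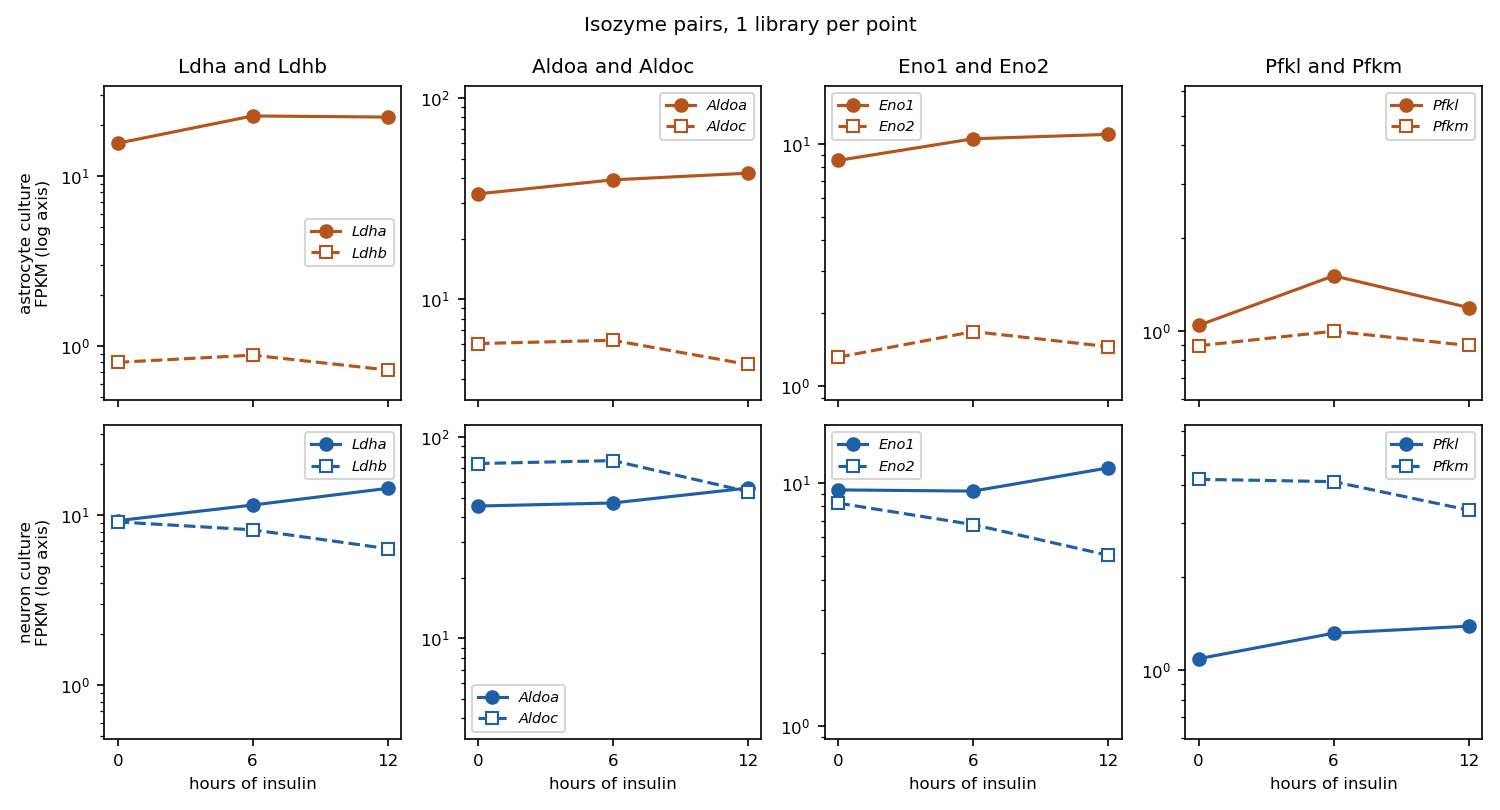
FPKM on a log axis against hours of insulin (0, 6 and 12) for 4 isozyme pairs, in astrocyte cultures (top row) and neuron cultures (bottom row), 1 library per point. In neuron cultures Ldha and Ldhb separate over the 3 libraries, Ldha at 14.4 FPKM and Ldhb at 6.35 FPKM at 12 h, Eno1 and Eno2 likewise, and the rows named Aldoa and Aldoc meet, Aldoa at 55.8 FPKM and Aldoc at 53.6 FPKM. Copies are left out here, and with them Aldoa lies above Aldoc in all 3 neuron libraries, at a ratio of 2.41 at 12 h.

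**Figure D3:**
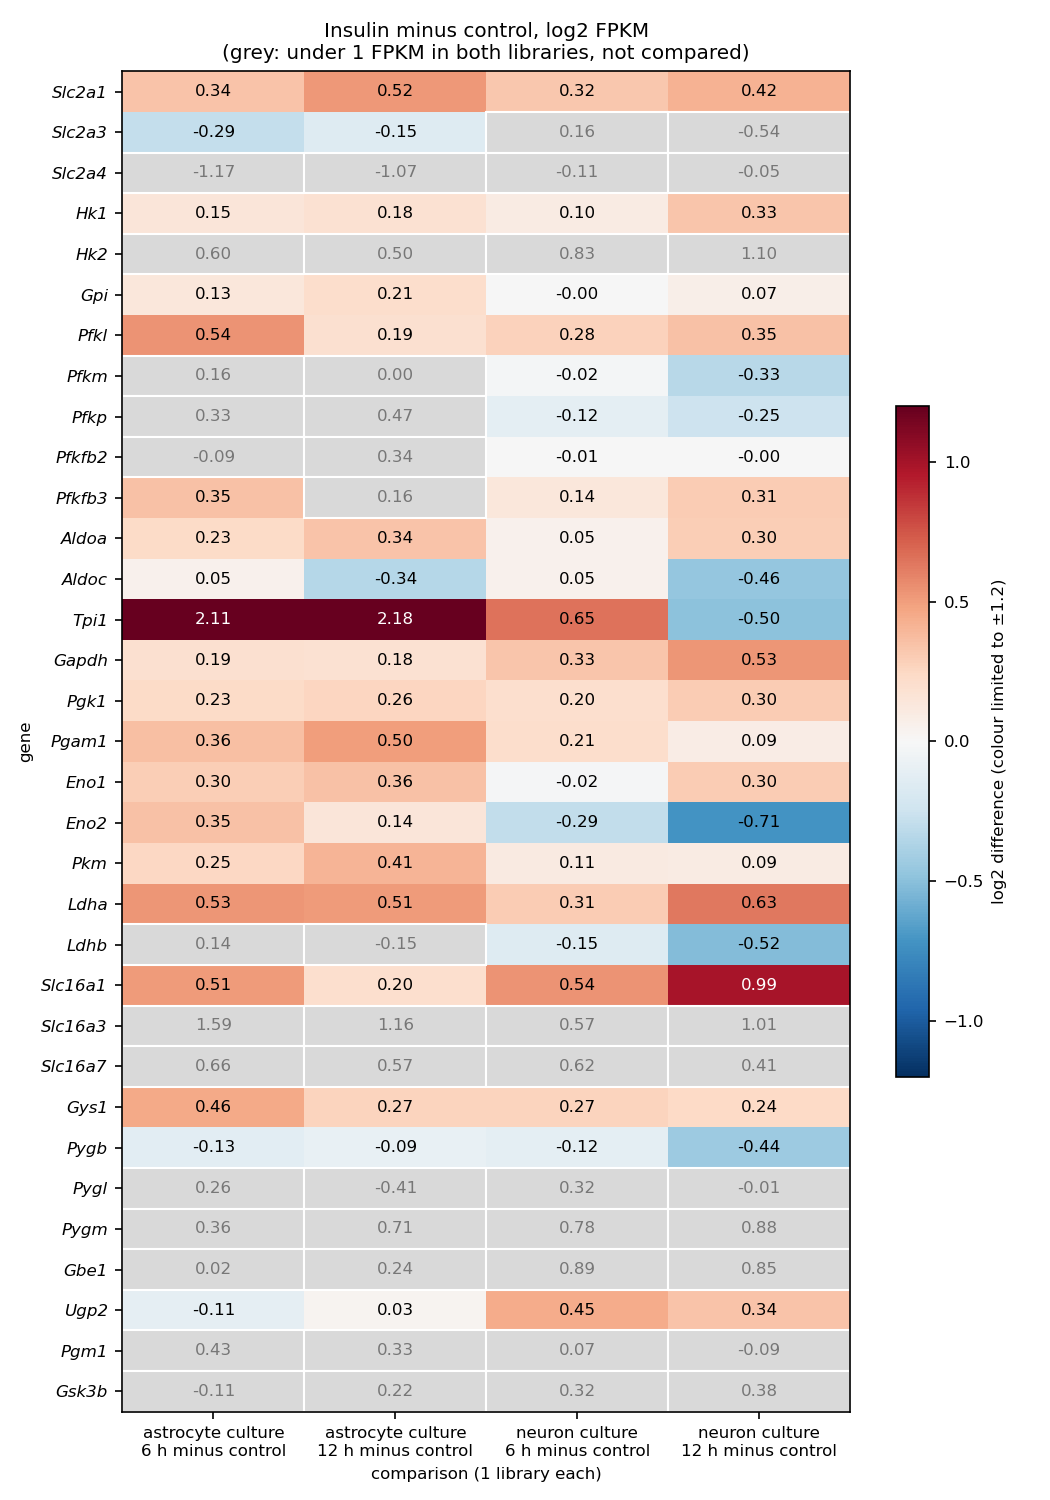
Log2 difference of insulin minus control for all 33 genes (rows) in the 4 insulin comparisons (columns), with the value printed in each cell and cells of genes under 1 FPKM in both libraries in grey. The astrocyte columns are mostly above 0, and the neuron 12 h column mixes Ldha (0.63) and Slc16a1 (0.99) with Eno2 (-0.71) and Ldhb (-0.52).

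Tpi1, the isomerase that interconverts the triose products of aldolase, had the largest differences between insulin and control among the genes compared in astrocyte cultures. It was at 1.65, 7.11 and 7.46 FPKM at 0, 6 and 12 h in astrocyte cultures, differences of 2.11 and 2.18, and at 1.32, 2.07 and 0.933 FPKM in neuron cultures, differences of 0.65 and -0.50. The row is not the only one for this sequence. RefSeq names 5 copies of Tpi1, and the row of the protein-coding copy Tpi1l1, listed under its locus identifier LOC500959, was at 11.5, 14.6 and 13.5 FPKM in astrocyte cultures and 10.7, 12.8 and 13.1 FPKM in neuron cultures. Added together, the Tpi1 rows came to 13.1, 21.7 and 20.9 FPKM in astrocyte cultures and 12.1, 14.9 and 14.0 FPKM in neuron cultures. The differences of the sum were 0.73 and 0.67 in astrocyte cultures and 0.30 and 0.22 in neuron cultures, so that the sum did not reach 2-fold and was above the control in all 4 comparisons.

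Copies of this kind were common in the set. RefSeq lists 216 pseudogenes or copies named after 11 of the 33 genes, 130 of these have a row in the table and 14 rows, from 8 genes, reached 1 FPKM. How the authors assigned reads that match several copies is not given in the sources used here, so the split between a gene and its copies is uncertain. For several genes the copies held most of the level. The Pkm copies held between 98.0% and 98.4% of the summed FPKM over the 6 libraries, led by Pkml1, at 132 FPKM in the astrocyte and 76.5 FPKM in the neuron control, against 4.38 and 2.43 FPKM in the row named Pkm. The share in copies was 93.5% to 95.1% for Eno1, 88.1% to 90.8% for Gapdh, 55.3% to 56.9% for Aldoa, 48.4% to 50.5% for Ldha, 47.6% to 52.5% for Pgk1 and 23.7% to 29.5% for Pgam1. These 7 shares spanned at most 5.82 percentage points between libraries. That of Tpi1 ran from 64.4% in the astrocyte 12 h library to 93.4% in the neuron 12 h library, with 87.4% and 89.1% in the controls of the astrocyte and neuron cultures. The comparison of levels between genes, such as Pkm with Ldha, therefore holds for rows of the table and not for transcripts of a gene.

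With copies added, 17 of 20 genes at 6 h and 16 of 19 at 12 h were again above 0 in astrocyte cultures. The medians of all genes were above 0 as well, at 0.09 and 0.10 before copies were added. Summed levels of Gapdh were 472, 555 and 574 FPKM at 0, 6 and 12 h in astrocyte cultures, and those of Eno1 were 132, 181 and 186 FPKM (0.46 and 0.50). Summed Pkm was at 230, 262 and 294 FPKM (0.19 and 0.35) and summed Ldha at 30.9, 44.5 and 43.2 FPKM (0.52 and 0.48). In total, 8 of 20 genes were then called higher and 0 lower at 6 h, against 18% and 7.99% of all genes with copies added, and 6 of 19 higher and 1 lower at 12 h, against 16.6% and 7.07%. Pgam1 (0.29) and Gys1 lost their call at 6 h, Eno1 gained one, and Aldoa (0.31) lost its call at 12 h. Pgam1 was then no longer called higher at both times, while Eno1 was. The copies of Gys1 held 26.2% to 34.4% of its summed level and differed by -0.10 at 6 h. In neuron cultures summed Ldha was at 18.0, 22.3 and 29.0 FPKM (0.31 and 0.69), and the ratio of summed Ldha to summed Ldhb was 1.97, 2.73 and 4.52. With copies the neuron ratios of Aldoa to Aldoc were 1.39, 1.43 and 2.41, above 1 in the control where the rows gave 0.615, and those of Eno1 to Eno2 were 23.0, 27.3 and 40.9. Summed Gapdh there was at 516, 585 and 577 FPKM, a difference of 0.16 at 12 h, against 0.53 for the row named Gapdh alone. With copies added, 4 of 23 genes were called higher and 0 lower at 6 h in neuron cultures, against 27.4% and 7.11% of all genes, with 8 higher and 5 lower at 12 h, against 30.4% and 10.5%. Gapdh lost its call at both times and Tpi1 at both, while Pgk1 was called higher at both and Aldoa at 12 h. Between the controls summed Eno1 was called lower in the astrocyte culture (-0.53) and summed Gys1 higher (0.39), unlike the rows named Eno1 and Gys1. Lengths differ between a gene and its copies, so a sum of FPKM approximates the level of the family.

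**Figure D4:**
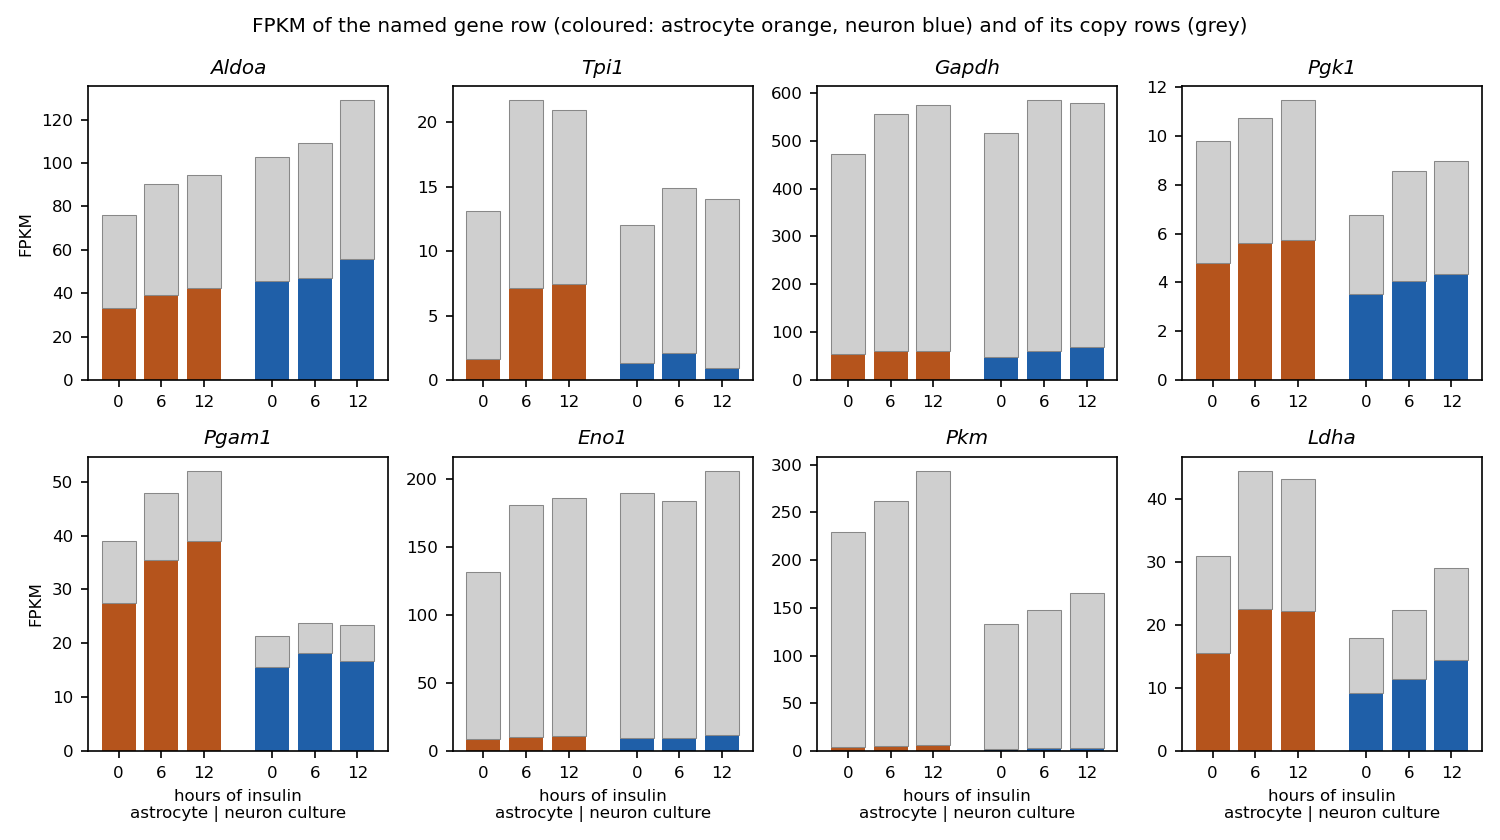
Stacked FPKM in the 6 libraries (0, 6 and 12 h of astrocyte cultures, then of neuron cultures) of the row named after each of 8 genes (coloured) and of the rows of its copies (grey), 1 library per bar. Copies hold nearly all of the Pkm bar, and only in the Tpi1 panel does the coloured part change its share widely, with copies at 87.4% of the bar at 0 h, 67.3% at 6 h and 64.4% at 12 h in astrocyte cultures.

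Promoters are shown for Slc2a1, Slc16a1 and Ldha, which were called higher in at least 3 of the 4 insulin comparisons and lower in none, a choice made after their values were seen, and for Ldhb, Eno2 and Aldoc, the isozymes with the lowest 12 h differences in neuron cultures among genes with no copy row at 1 FPKM. Many glycolytic genes are textbook targets of the hypoxia-inducible factors, whose sites hold the core ACGTG or GCGTG. Each sequence is the RefSeq window from 250 bases before to 50 bases after the gene start, in build GRCr8, a newer assembly than the authors' build. Capitals mark the cores ACGTG and GCGTG on either strand; a site on the opposite strand reads CACGT for the ACGTG core and CACGC for the other. The palindrome CACGTG, an E-box, holds the first core on both strands.
Slc2a1 (chr5:138002272-138002571, plus strand): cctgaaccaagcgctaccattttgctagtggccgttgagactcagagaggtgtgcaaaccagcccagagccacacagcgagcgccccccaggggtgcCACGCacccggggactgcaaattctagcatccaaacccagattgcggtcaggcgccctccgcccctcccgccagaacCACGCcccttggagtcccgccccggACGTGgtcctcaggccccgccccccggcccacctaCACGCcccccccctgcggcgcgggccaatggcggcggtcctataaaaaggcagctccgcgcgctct
Slc16a1 (chr2:194812410-194812709, plus strand): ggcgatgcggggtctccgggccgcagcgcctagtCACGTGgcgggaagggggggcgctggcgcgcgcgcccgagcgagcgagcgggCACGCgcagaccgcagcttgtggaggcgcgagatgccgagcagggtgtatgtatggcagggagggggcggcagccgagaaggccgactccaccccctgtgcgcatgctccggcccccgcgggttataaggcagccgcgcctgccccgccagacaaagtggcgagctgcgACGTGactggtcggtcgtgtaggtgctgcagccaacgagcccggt
Ldha (chr1:106507842-106508141, plus strand): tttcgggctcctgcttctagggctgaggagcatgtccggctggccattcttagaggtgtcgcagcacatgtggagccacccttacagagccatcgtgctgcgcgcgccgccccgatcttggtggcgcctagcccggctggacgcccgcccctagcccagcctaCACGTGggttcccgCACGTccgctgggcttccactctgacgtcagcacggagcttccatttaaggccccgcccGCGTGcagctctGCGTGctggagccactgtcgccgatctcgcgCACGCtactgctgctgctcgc
Ldhb (chr4:177177359-177177658, minus strand): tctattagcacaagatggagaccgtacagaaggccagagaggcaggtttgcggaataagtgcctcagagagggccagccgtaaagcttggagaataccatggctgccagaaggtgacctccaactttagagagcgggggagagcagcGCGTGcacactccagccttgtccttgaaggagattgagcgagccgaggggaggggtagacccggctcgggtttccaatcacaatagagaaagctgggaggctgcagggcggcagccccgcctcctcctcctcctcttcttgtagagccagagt
Eno2 (chr4:159267171-159267470, minus strand): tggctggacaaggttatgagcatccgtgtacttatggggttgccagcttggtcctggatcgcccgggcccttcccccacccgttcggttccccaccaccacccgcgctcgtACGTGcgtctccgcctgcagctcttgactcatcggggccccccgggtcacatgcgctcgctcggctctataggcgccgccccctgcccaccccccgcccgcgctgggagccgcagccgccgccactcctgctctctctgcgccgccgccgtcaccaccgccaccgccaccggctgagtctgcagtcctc
Aldoc (chr10:63715294-63715593, plus strand): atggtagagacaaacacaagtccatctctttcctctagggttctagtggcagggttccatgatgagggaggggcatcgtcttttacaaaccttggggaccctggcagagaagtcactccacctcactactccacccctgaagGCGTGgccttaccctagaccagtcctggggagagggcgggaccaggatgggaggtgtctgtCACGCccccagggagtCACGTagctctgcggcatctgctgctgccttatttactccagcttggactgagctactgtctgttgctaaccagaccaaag

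The Ldha window held 3 matches to ACGTG and 3 to GCGTG over both strands, with 1 CACGTG. The Slc16a1 window held 3 and 1, with 1 CACGTG, and the Slc2a1 window 1 and 3. The Ldhb window held 0 and 1, the Eno2 window 1 and 0, and the Aldoc window 1 and 2. The 6 genes were chosen for their values and their counts overlap core by core, so no comparison between them is made. Of the 33 genes, 30 matched the promoter table with 34 windows, and those with no entry were Slc2a3, Slc2a4 and Pgk1. At least 1 core was found in 26 of the 34 windows (76.5%), against 41.6% of 33469 windows of all genes. For ACGTG alone it was 20 of 34 (58.8%), against 19.3%, for GCGTG 15 of 34 (44.1%), against 29.7%, and for CACGTG 4 of 34 (11.8%), against 6.42%. The median GC content of the 34 windows was 61.2%, against 51.7% in all, and both cores are rich in G and C. A match is a description of the sequence and not evidence that a factor binds it. Hif1a, which encodes a hypoxia-inducible subunit, was at 1.37, 1.38 and 1.47 FPKM in astrocyte cultures at 0, 6 and 12 h and at 1.47, 2.38 and 2.52 FPKM in neuron cultures (0.69 and 0.78).

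Genes around the pathway were read from a list of 86 regulators and neighbouring enzymes, of which 81 were analysed here. In astrocyte cultures 2 of 32 compared were lower at 6 h and 1 at 12 h, and 5 were higher at each time, against 7.98% and 7.06% lower and 18% and 16.7% higher among all genes at 6 and 12 h. None reached 2-fold. Of the genes compared, the muscle enolase Eno3 was the most raised at each time, at 0.908, 1.73 and 1.66 FPKM at 0, 6 and 12 h (0.93 and 0.87). Txnip, an arrestin that restrains glucose uptake, had the lowest difference at each time (-0.63 at 6 h and -0.36 at 12 h). In neuron cultures Txnip was lower at 6 h (-0.45) and higher at 12 h (0.39). Mlx, a partner of the glucose-sensing transcription factors, was higher at both times, at 3.36, 4.73 and 5.24 FPKM.

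In neuron cultures 3 of 35 listed genes were lower and 7 higher at 6 h, against 7.11% lower and 27.3% higher among all genes, with 4 lower and 10 higher of 34 at 12 h, against 10.5% and 30.4%. The list did not hold more higher genes than that background, and the values that follow describe single genes. Stbd1, which tethers glycogen to membranes, was the gene that reached 2-fold, at 0.932, 1.14 and 2.08 FPKM (1.16 at 12 h). The mitochondrial pyruvate carrier subunits, which take pyruvate out of the cytosol, were both higher at both times, Mpc1 at 3.74, 6.45 and 5.62 FPKM and Mpc2 at 2.00, 2.84 and 2.55 FPKM. Of the pentose phosphate pathway, which diverts sugar phosphate to NADPH and ribose, Taldo1 was at 7.67, 9.49 and 14.1 FPKM and Rpe at 0.933, 1.53 and 1.56 FPKM, both called higher at 12 h. Between the controls, the 3 listed genes of largest excess in the astrocyte culture were Ppp1r3b, which targets a phosphatase to glycogen (2.07 FPKM in the astrocyte and 0.0183 FPKM in the neuron control), Slc25a13, an aspartate-glutamate carrier (2.04 and 0.0344 FPKM), and Stbd1 (4.67 and 0.932 FPKM). Those of largest deficit were Nhlrc1, a ubiquitin ligase of glycogen metabolism (0.766 FPKM in the astrocyte and 4.46 FPKM in the neuron control), the muscle mutase Pgam2 (0.711 and 3.05 FPKM) and Ldhd, the D-lactate dehydrogenase of mitochondria (0.542 and 2.20 FPKM).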

How the data were processed

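RNA of 6 libraries was measured by stranded total RNA sequencing after ribosomal RNA depletion, per the labels' protocols. The values used are log2 FPKM, quantile-normalised over the libraries by the authors and deposited as 1 table with a gene symbol per row. The FPKM unit, log and quantile step come from the name of the deposited table, and base 2 was inferred from the values. Software named in the submitters' processing notes was Partek 6.5 and bcl2fastq 2.17.1.14, and the build was Rnor 6.0. Aligner, annotation and the treatment of multiply matching reads are not stated in the sources at hand.

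The table held 37185 rows, of which 2 repeated a symbol, and the row of higher mean was kept. Unused per-sample columns numbered 0. Differences were taken on the deposited log2 scale with no pseudocount, with a floor of 1 FPKM in either library. Copies of a gene were taken from RefSeq (GRCr8) symbols and matched to rows by symbol, gene ID or synonym. All 33 genes matched RefSeq. Total counts were not used, so depth and counting error are unknown. The counting was tested on simulated data. The genes, lists and thresholds were chosen with earlier results of these data known. All genes of the set were described, and listed genes outside it were named at 2-fold in an insulin comparison or among the 3 of each direction between controls. Txnip, Hif1a, Mlx, Bsg, Eno3, the pyruvate carrier genes, Taldo1 and Rpe were named after their values were seen. Alternatives were no floor, a floor of 5 FPKM, log2(FPKM + 1), centring on all genes, leaving out genes with copies, and, chosen after seeing the data, adding copies. Analyses used Python 3.11.15, pandas 2.3.3 and numpy 2.4.6.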

Additional observations from a re-analysis of the deposited data

Results flagged for a closer look

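Tpi1 moved in opposite directions in the cultures at 12 h. The difference of insulin minus control was 2.18 in the astrocyte culture and -0.50 in the neuron culture, a contrast that was not tested, since each value rests on 2 libraries. With the rows of its copies added, the differences were 0.67 and 0.22, on the same side of 0.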

How the results depend on the processing

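Over 15 medians and counts and 6 alternatives each, 52 values stayed close to those reported and 38 moved, by over 0.1 in a median or over 1.5 times in a count. Only the median between the controls (-0.42) was past 0.32 in size, and it kept its sign. The insulin medians were smaller, and that of neuron cultures at 6 h changed sign on centring, from 0.11 to -0.024. Under the no-floor, 5 FPKM, log2(FPKM + 1) and centred alternatives the share of all genes called is not given. Those counts therefore show neither an excess nor a lack against all genes. With no floor, counts of higher genes were 15 and 14 at 6 and 12 h in astrocyte cultures, 11 and 13 in neuron cultures and 9 between the controls, and counts of lower genes in astrocyte cultures were 1 and 3, all of 33. With a floor of 5 FPKM, higher genes were 3 of 9 in the astrocyte 6 h comparison and 2 of 8 between the controls. In neuron cultures they were 1 of 8 at 6 h and 2 of 8 at 12 h. Lower genes under that floor were 3 of 8 at 12 h in neuron cultures and 4 of 8 between the controls. The medians were 0.36 at 12 h in astrocyte cultures and -0.29 between the controls. With log2(FPKM + 1), higher genes were 3 at 6 h in astrocyte cultures and 3 at each time in neuron cultures, lower genes were 0 at 12 h in astrocyte cultures, and the medians were 0.13 at 12 h in neuron cultures and -0.23 between the controls. Centred on all genes, higher genes were 5 and 4 in astrocyte and 2 and 3 in neuron cultures, lower genes were 1 at 6 h in each culture, and the medians were 0.11 at 12 h in astrocyte cultures, -0.024 and 0.093 in neuron cultures and -0.32 between the controls. Without genes that have a copy, higher genes were 5 of 11 and 1 of 10 in astrocyte cultures, 3 of 13 at 6 h in neuron cultures and 1 of 14 between the controls, and the medians were 0.15 at 6 h in astrocyte cultures, 0.070 at 12 h in neuron cultures and -0.77 between the controls. Adding copies, chosen after seeing the data, moved none of the 15 by these limits, though single calls changed. The cause of the moves was not tested, except that a floor or the removal of genes leaves fewer to count. No paired analysis was possible because each group had 1 library, so no replicate could be left out either. Unknown depth limits all values below 1 FPKM.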
